A study of Mus musculus with 30 samples.

Results

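Kidney RNA taken after 3 or 7 days of angiotensin II was compared with kidney RNA of day 0, which had no angiotensin II. The comparison holds 6 of the 30 arrays of the series, chosen by tissue and day in their titles: 2 of day 0, 2 of day 3 and 2 of day 7. All mice were male C57BL/6, 8 to 10 weeks old, and those of days 1, 3 and 7 received angiotensin II at 1500 ng per kg per minute from an implanted osmotic pump. The labels do not say whether day 0 mice carried a pump, how many mice a replicate holds, or which organs share a mouse, so that p-values measure the spread between these arrays. The 2 kidney arrays of day 1 served only to estimate that spread and to show the earlier level, and 12 heart arrays and 6 brain arrays entered where named. The question, from the series title, is how expression in kidney changes over a week of infusion, and here which differences from day 0 are present on both later days.

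Angiotensin II acts in kidney mainly through the AT1 receptor, which constricts glomerular arterioles and raises sodium uptake in the proximal tubule. It also raises aldosterone, the adrenal steroid that increases sodium channels in the distal nephron and collecting duct. Long infusion in mice is a standard model of hypertension with vascular and matrix remodelling.

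Values are array intensities on a linear scale, normalized by the submitters to a common level: the median intensity of the kidney arrays lay between 35.2 and 36. Differences are those of log2(intensity + 16), which understates the change of weak signals, and are given with the standard error (SE) of the limma fit. Of 18193 genes with a probe set of their own, 14145 passed a filter on low values in kidney and were tested. The number of arrays, 2 per day, limits the precision of every difference. Kidney markers were strong on all 6 arrays: Kap, the androgen-regulated protein of the proximal tubule, had intensities from 17740.0 to 21077, and Umod, the uromodulin of the thick ascending limb, from 10162 to 13017. In RNA of whole kidney, fewer cells of a type and less RNA per cell cannot be told apart.

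Markers of neighbouring tissue were present on some arrays. On day 3 replicate 2 Adipoq, the adipocyte hormone adiponectin, had an intensity of 6176, against 40.9 to 235 on the other 5 arrays of days 0, 3 and 7. Ucp1, the uncoupling protein of brown fat, was 3297.5 there and 24.4 to 43.2 on the other 5. The adrenal cortex markers were high on the same array and also on day 0 replicate 2: Star, the steroidogenic cholesterol carrier, was 3693 and 2147 on these and 14.7 to 17.3 on the other 4. Hsd3b1 was 4461 and 2675 against 19 to 21.2, Cyp11b1 was 893 and 391 against 15.1 to 18.8, and Cyp11a1 was 712 and 307 against 15.9 to 18.1. Of the adrenal medulla, Th was 140.4 on day 3 replicate 2 and 69.9 on day 0 replicate 2 against 29.6 to 31.2 elsewhere, and Dbh 209 and 143 against 99.1 to 121. Summed over 13 white fat markers the intensity was 45062 on day 3 replicate 2 and 12138 to 14716 on the other 5 arrays, over 9 brown fat markers 9023 against 1359 to 1860, and over 11 adrenal cortex markers 17140 there, 10596 on day 0 replicate 2 and 3576 to 4219 on the other 4. The day 1 arrays carried fat markers too (Adipoq 2318 and 3335), and day 1 replicate 2 liver markers (Alb 12040). No gene passed the test between later days and day 0, as given below. That no fat or adrenal marker passed it thus says nothing of their influence. Values without day 3 replicate 2 or without day 0 replicate 2 therefore stand beside many of the results below.

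**Figure D1:**
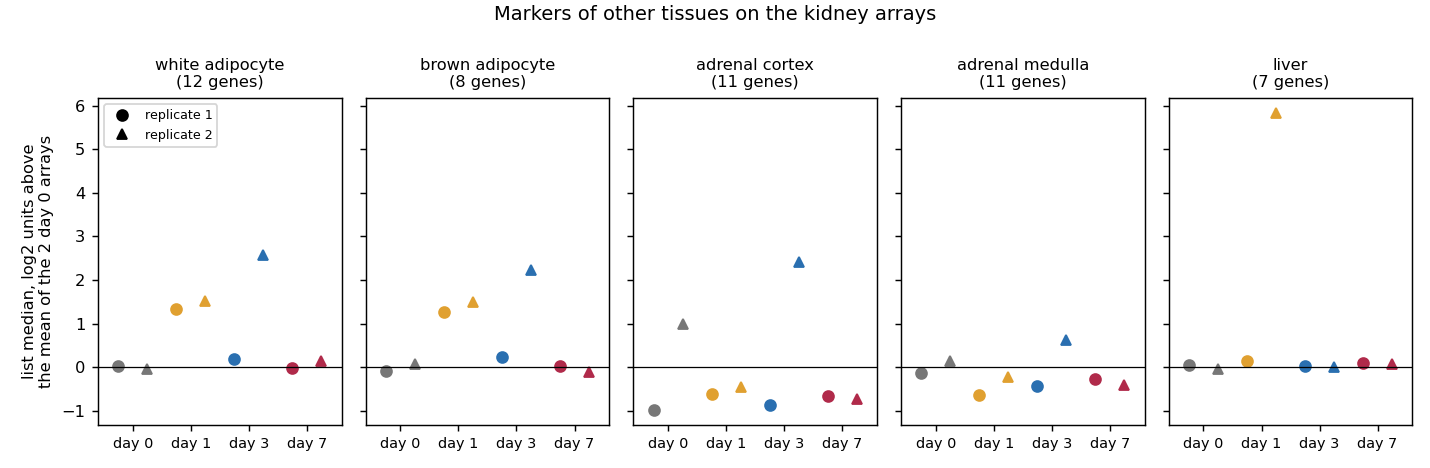
Medians of 5 marker lists of other tissues on each of the 8 kidney arrays, as log2 difference from the mean of the day 0 arrays; circles are replicate 1 and triangles replicate 2. Day 3 replicate 2 stands at 2.58 for white fat, 2.23 for brown fat and 2.42 for adrenal cortex, day 0 replicate 2 is the higher of its pair for adrenal cortex, and day 1 replicate 2 stands at 5.84 for liver.

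No gene passed an adjusted p of 0.05 between the 4 later arrays and day 0 (0 of 14145, 0% in each direction; limma with Benjamini-Hochberg adjustment, smallest adjusted p 0.294). At an unadjusted p under 0.05 the same limma fit held 677 genes higher (4.79%) and 520 lower (3.68%) in later kidneys, 1197 in all (8.46%). In 1551 genes (11%) all 4 later arrays lay above both day 0 arrays, and in 1063 (7.52%) all 4 lay below. Day 3 alone against day 0 also had 0 called genes (0%; 8.45% at an unadjusted p under 0.05 by limma), as had day 7 alone (0%; 6.72%). For comparison, 37 genes rose and 34 fell at day 1 in the same fit (0.262% and 0.24%). None of the genes described from this comparison passed the test unless another fit is named, and "higher" and "lower" state the measured difference. As none passed, the genes named first are the 10 with the smallest p in each direction among those whose later and day 0 arrays do not overlap. Non-overlap is thus part of their choice.

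Among these 10 higher genes, the difference was widest for Cyp4a14, a fatty acid omega-hydroxylase and target of PPAR alpha. Its intensity was 603 and 905 at day 0, 2666 and 1805 at day 3, and 1974 and 1871.5 at day 7. All 4 later values were thus well above day 0 and below the day 1 arrays, which had 4801 and 4995. The difference of later days from day 0 was 1.45 ± 0.19 (SE) on the log2 scale, 2.74-fold, with an adjusted p of 0.29 by limma. Sema3g, a secreted class 3 semaphorin, had 217 and 187 at day 0, 451 and 399.8 at day 3, and 529 and 391 at day 7. Every later array was above both day 0 arrays, near the day 1 level of 509 and 447, and the difference was 1.07 ± 0.14 (adjusted p = 0.29, limma). Sparcl1, a matricellular protein related to SPARC, had 305 and 288 at day 0, 489.5 and 545 at day 3, and 492 and 416 at day 7. That is a difference of 0.68 ± 0.09 (adjusted p = 0.30, limma), largest on day 3 replicate 2. Lgals3, galectin-3, had 879.7 and 892.5 at day 0, 1123 and 1365 at day 3, and 1859 and 1609.6 at day 7. It was higher at day 7 than at day 3 on both arrays, and its pooled difference was 0.71 ± 0.10.

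The other 6 higher genes differed by 0.43 to 0.65 on the log2 scale. Spink8, a Kazal-type protease inhibitor, had 289 and 235 at day 0 against 409 to 426 on the 4 later arrays, which lay close together. Slc26a4, the chloride-bicarbonate exchanger pendrin of intercalated cells, had 906 and 873 at day 0 and 1155 to 1238 later (0.43 ± 0.07). Akap13, an A-kinase anchoring protein, Ahnak, a large scaffold protein, Enc1, an actin-binding kelch protein, and Kitl, the ligand of the KIT receptor, were higher by 0.45, 0.49, 0.46 and 0.49. For these 4 genes the other probe sets showed less. Averaged over all probe sets of the gene, the differences were 0.08, 0.18, 0.18 and 0.30. The average of Akap13 includes probe sets near background, and its other probe sets above that level stood at 0.01 and 0.09.

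Among the lower genes, Akr1d1, a steroid 5-beta-reductase, had 282 and 398 at day 0, 142 and 147 at day 3, and 157 and 198 at day 7. The later values lay below both day 0 arrays, and the difference was -0.995 ± 0.15 (adjusted p = 0.30, limma). Slc51a, a subunit of the bile acid and steroid exporter OST, had 245 and 189 at day 0, 90.8 and 109.6 at day 3, and 112 and 108 at day 7. Its difference was -0.94 ± 0.11 (adjusted p = 0.29, limma), and the day 1 arrays were lower still, at 74 and 70.6. Tnfsf10, the death ligand TRAIL, had 376 and 339 at day 0, 184 and 185 at day 3, and 262 and 256 at day 7. The day 7 arrays lay between day 3 and day 0, and the pooled difference was -0.67 ± 0.07, the smallest p of the comparison. Hs6st2, a heparan sulfate sulfotransferase, was lower by -0.75 ± 0.11, and Tmem237, a protein of the ciliary transition zone, by -0.65 ± 0.08. Eci3, an isomerase of unsaturated fatty acid oxidation, had 4111 and 3431 at day 0 and 2446 to 2667 later (-0.56 ± 0.09). Olfml3, a secreted olfactomedin-like protein, Tfpi2, a Kunitz-type protease inhibitor, Nipsnap3b, and Derl2, a derlin of endoplasmic reticulum degradation, were lower by -0.51, -0.49, -0.45 and -0.40. The second probe set of Derl2 stood at 0.06, and Hs6st2 averaged over its probe sets at -0.25, so both rest on a single probe set.

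**Figure D2:**
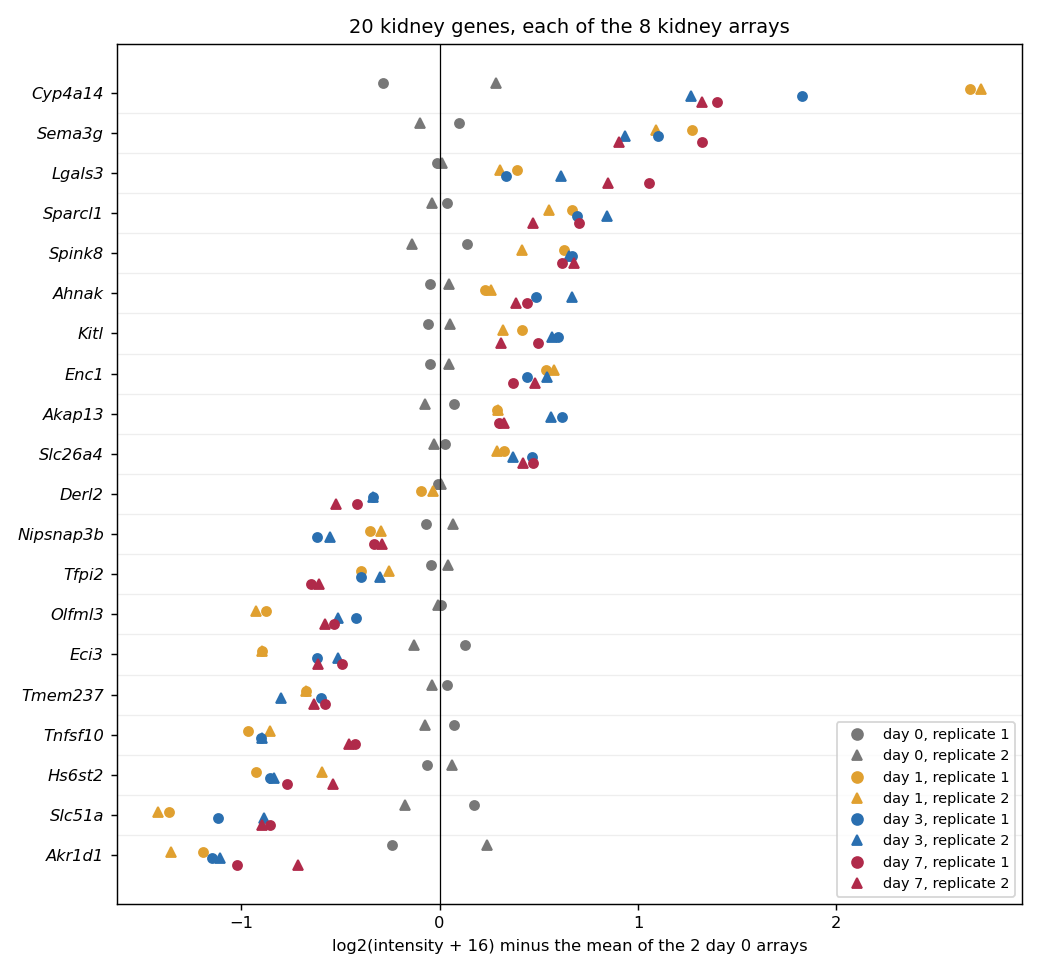
Log2(intensity + 16) minus the mean of the day 0 arrays for the 20 genes, with colour for the day and circles or triangles for replicates 1 and 2. The 4 later arrays lie on one side of both day 0 arrays in every gene, which is how the genes were chosen, and the day 1 arrays of Cyp4a14 and Slc51a lie beyond the later ones.

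These differences were about as large without the arrays that carried fat and adrenal markers. None of the 20 genes is in a fat or adrenal list, and that array was the highest of the 4 later arrays in 5 of them and the lowest in 3. Without it, the 20 had 0.903 (Lgals3) to 1.10 times (Cyp4a14) the pooled difference. Their direction could not turn when an array was left out, as the choice by non-overlap fixes it. Leaving out day 0 replicate 2 gave 0.761 (Akr1d1) to 1.23 times (Eci3), and leaving out both gave 0.772 (Akr1d1) to 1.29 times (Cyp4a14). On the 3 later arrays and the day 0 array without these markers, Cyp4a14 rose by 1.88 ± 0.10 (adjusted p = 0.0485, limma; 0.00707% of genes rose and 0.0141% fell), a fit added after the data were seen in which the spread of the days with a lone array is taken from the other days. With both day 1 arrays, which carry fat or liver markers, left out as well, it stood at 1.80 with an adjusted p of 0.25 by limma, and 0 genes were called (smallest adjusted p 0.148, 1145 genes at an unadjusted p under 0.05).

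The array pair of day 3 shows where such markers do enter. With day 3 replicate 1 left out, so that replicate 2 alone stands for the day, 31 genes rose and 1 fell. Of these, 9 are in the fat lists, among them Cidea (2.87 ± 0.16) and Ucp1 (2.81 ± 0.17), and 29 of the 31 were more than 2-fold higher on day 3 replicate 2 than on replicate 1. Lgals3 and Tmem237 were the only 2 of the 20 genes above among these 32.

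Day 7 was also tested against day 3. Both days were compared with the same day 0 arrays and the genes were chosen by the pooled difference of both days, so that the same sign on both days is fixed by the choice and is no result. The contrast of day 7 with day 3, which uses no day 0 array, held 0 called genes of 14145 (0% in each direction, limma) and 608 at an unadjusted p under 0.05 (4.3%). Of the 1197 genes with an unadjusted p under 0.05 for later days against day 0, 126 (10.5%) also had one for day 7 against day 3, against 4.30% of all genes, and the same residual spread enters both tests.

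In 5 of the 20 named genes day 7 differed from day 3 at an unadjusted p under 0.05, by limma, and in 14 of the 20 the day 3 difference from day 0 was the larger one. Tnfsf10 was lower by -0.90 at day 3 and -0.44 at day 7, Nipsnap3b by -0.58 and -0.31, and Akap13 higher by 0.59 and 0.31. Lgals3 was higher by 0.48 and 0.95, and Tfpi2 lower by -0.35 and -0.63, both with the larger difference at day 7. Cyp4a14 (1.55 and 1.36), Sema3g (1.02 and 1.11), Eci3 (-0.56 and -0.55) and Spink8 (0.66 and 0.65) differed little between the days. The genes with the smallest p between the days were Efhd2, a calcium-binding protein (735 and 689.9 at day 3, 980.1 and 1149 at day 7), Slc43a1, an amino acid transporter (106.5 and 115, then 64.3 and 77.7), and Peg3, an imprinted zinc finger gene (388.5 and 434, then 280.2 and 218). In these the arrays of day 3 and day 7 did not overlap, and the pooled difference from day 0 was 0.16, 0.27 and -0.28.

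**Figure D3:**
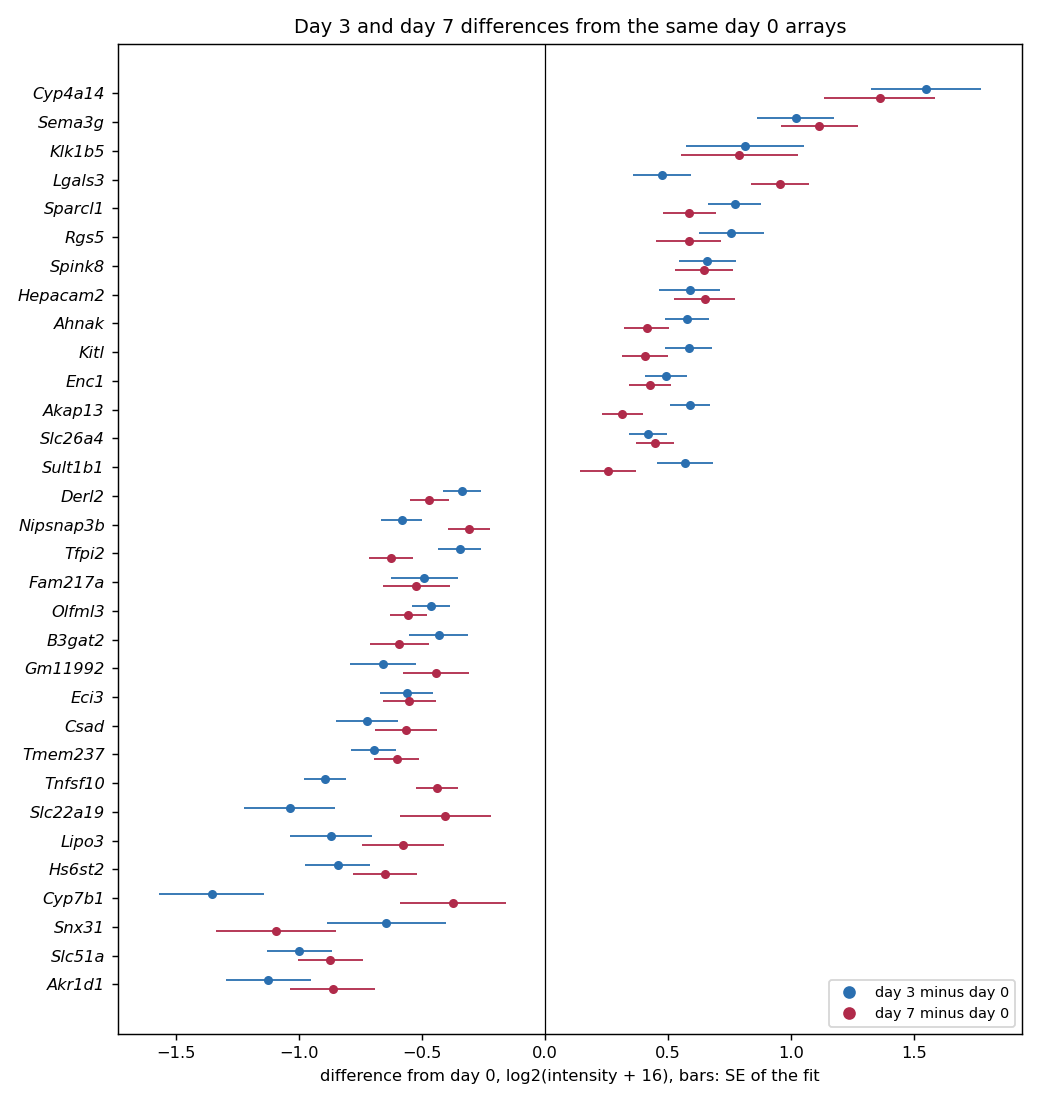
Day 3 and day 7 differences from day 0 with their SE, for the 20 genes above and the genes called in the joint fit described next, 32 in all. Both days use the same day 0 arrays, and most pairs of bars overlap, while others, such as those of Lgals3, Tnfsf10, Akap13 and Cyp7b1, do not.

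A joint fit of 26 kidney, heart and brain arrays, added after the data were seen, gives each gene 1 spread over the 3 tissues. In it 7 genes rose and 10 fell between day 0 and later days in kidney (0.0495% and 0.0707% of 14145, with 4.87% at an unadjusted p under 0.05). Risen genes were Cyp4a14 (1.45 ± 0.13, adjusted p = 1.67e-05, limma), Sema3g, Klk1b5, Sparcl1, Rgs5, Hepacam2 and Sult1b1. Fallen genes were Akr1d1 (-0.995 ± 0.10, adjusted p = 6.7e-05, limma), Slc51a, Snx31, Cyp7b1, Lipo3, Slc22a19, Csad, Gm11992, B3gat2 and Fam217a. In 16 of these 17 each day reached at least 0.5 times the pooled difference, which their choice by that difference favours, the exception being Cyp7b1. In 11 of the 17 the gene was below the filter in both heart and brain, Cyp4a14, Slc51a and Akr1d1 among them, so their spread in this fit is estimated largely on arrays in which the gene is near background. Of the remaining 6, Sema3g, Sparcl1, Rgs5, Csad and Lipo3 passed the filter in both other tissues and Cyp7b1 in brain only.

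Of the genes called only in the joint fit, Cyp7b1, the oxysterol 7-alpha-hydroxylase, had 3799 and 4139.5 at day 0, 1619 and 1461.5 at day 3, and 2620.1 and 3555 at day 7. It was lowest at day 3 (-1.36), and at day 7 the difference was -0.38. Another strong probe set of Cyp7b1 gave a pooled difference of -0.81, close to -0.87 for the probe set used. The average over its probe sets, -0.56, also includes 1 near background, with a mean intensity of 5.67. Csad, the decarboxylase of taurine synthesis, had 1337 and 1189 at day 0 and 731 to 888 later, a difference of -0.65 ± 0.12 (adjusted p = 0.0335, joint limma fit). Slc22a19, an organic anion transporter, had 595 and 616.5 at day 0, 307 and 268 at day 3, and 403 and 509 at day 7. Sult1b1, a sulfotransferase, was weak throughout, with 20.3 and 14.9 at day 0 and 23.1 to 36.7 later. Rgs5, a regulator of G protein signalling found in pericytes, had 771 and 763 at day 0 and 1097 to 1486 later, with the highest value on day 3 replicate 2 (0.67 ± 0.10, adjusted p = 0.00544, joint limma fit). Klk1b5 is a kallikrein with near-identical relatives, and its probe set is of the kind that can bind several transcripts, so its value (0.80 ± 0.14) is uncertain as to the gene. Snx31, a sorting nexin, stood at -0.87, and at -0.50 without day 0 replicate 1.

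The receptor and the precursor of the renin-angiotensin system were near day 0, and 3 other genes of the list used for it were lower. Renin itself (Ren1) had no probe set with a single symbol and was not tested. Agtr1a, which encodes the AT1 receptor, had 582 and 566.5 at day 0 and 536 to 709 later, with overlapping groups and a difference of 0.06 ± 0.09. Agt, angiotensinogen, had 253 and 258 at day 0 and 233 to 303 later (-0.02 ± 0.16). Ace, the converting enzyme, had 295 and 218 at day 0, 171 and 150.5 at day 3, and 194.5 and 193 at day 7. All later arrays lay below day 0 (-0.49 ± 0.18, adjusted p = 0.56, limma), but a second probe set of Ace stood at -0.10, and without day 0 replicate 1 the difference was -0.28. Rnls, the flavoprotein renalase, is in the list but is not a component of the system. It was low throughout, at 58.3 and 52.6 at day 0 and 36.1 to 44.2 later. Of 10 tested members of the list, 3 (Rnls, Ace and Agtrap) were lower and 0 higher at an unadjusted p under 0.05, against 3.68% and 4.79% of all genes, and 3 lay below day 0 on all later arrays (30%, against 7.52%). The list median was -0.03 beside 0.02 for all genes, and without day 3 replicate 2 only 1 member was lower at that p.

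Genes of sodium and chloride transport in the distal nephron were more often higher. Of 23 tested markers of distal tubule and collecting duct, 6 were higher and 1 lower at an unadjusted p under 0.05 (all genes 4.79% and 3.68%). On all 4 later arrays 6 lay above day 0 (26.1%, against 11% of all genes). The list median was 0.05. By array it was 0.15 (day 3) and 0.16 (day 7) on replicate 1, but -0.04 and -0.03 on replicate 2. All 3 subunits of the epithelial sodium channel were among the 6. Scnn1g, the gamma subunit, had 161 and 150.5 at day 0, 215 and 228 at day 3, and 224 and 213 at day 7 (0.46 ± 0.08). Its day 1 arrays, at 161 and 185, were nearer to day 0. Scnn1b, the beta subunit, had 165 and 132 at day 0 and 188 to 214 later (0.42 ± 0.11). Scnn1a, the alpha subunit, had 214 and 242 at day 0 and 259 to 402 later (0.38 ± 0.15), with its highest value on day 3 replicate 2. Without that array Scnn1a stood at 0.25, and without day 0 replicate 2 Scnn1b stood at 0.28. Foxi1, the transcription factor of intercalated cells that controls pendrin in mice, had 138 and 145 at day 0, 225 and 169.7 at day 3 and 176 on both day 7 arrays (0.36 ± 0.11). Calb1, the calbindin of the distal tubule, was the lower one, at 7089 and 6606 at day 0 and 4884 to 6142 later (-0.31 ± 0.10). Without day 3 replicate 2 the list had 7 higher and 1 lower, and without day 0 replicate 2 it had 4 and 2, beside 5.39% and 3.37%, and 4.16% and 3.69%, of all genes. An overlapping list of 19 tested genes of the aldosterone response and WNK kinase pathway had 4 higher (the 3 channel subunits and Wnk1) and 0 lower, 8 higher without day 3 replicate 2, and 1 higher without day 0 replicate 2. Of the thick ascending limb, 0 of 12 tested markers had an unadjusted p under 0.05 in either direction, and the list median was -0.11. Its sign turned with the arrays used: leaving out day 3 replicate 2 gave a median of 0.01, leaving out day 0 replicate 2 gave 0.06, and leaving out both arrays gave 0.15.

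Proximal tubule genes were lower more often than higher. Of 44 tested, 13 were lower and 0 higher at an unadjusted p under 0.05 (all genes 3.68% and 4.79%). On all 4 later arrays 16 lay below day 0 (36.4%, against 7.52% of all genes), and the list median was -0.12. Slc22a18, a transporter-like protein, had 2135.5 and 2089 at day 0, 1721 and 1438 at day 3, and 1425 and 1333 at day 7 (-0.52 ± 0.09). Aadat, the aminotransferase of kynurenine and aminoadipate, had 2569 and 2469 at day 0, 1721 and 1593 at day 3, and 2050.1 and 2228 at day 7 (-0.42 ± 0.08). Slc22a7, an organic anion transporter, had 1247 and 957 at day 0 and spread widely later, from 169 on day 3 replicate 1 to 850.4 on day 7 replicate 2 (-1.39 ± 0.41). Without day 3 replicate 2 the list had 11 lower and 2 higher, and without day 0 replicate 2 it had 12 and 0.

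Some of these belong to a second list, genes known to be higher in male than in female mouse kidney. Of its 13 tested members 5 were lower and 1 higher at an unadjusted p under 0.05 (all genes 3.68% and 4.79%). On all later arrays 6 lay below day 0 (46.2%, against 7.52% of all genes), and the median was -0.42. Acsm3, a medium-chain acyl-CoA synthetase, had 3306 and 1978 at day 0, 576 and 812 at day 3, and 689 and 1470.0 at day 7 (-1.60 ± 0.49). Slco1a1, an organic anion transporter, had 1597 and 975 at day 0, 375 and 517 at day 3, and 399 and 909 at day 7 (-1.25 ± 0.48). Slc22a30 was lower by -0.96 ± 0.25 and Slc7a13, an aspartate, glutamate and cystine transporter of the straight proximal tubule, by -0.53 ± 0.13. In Acsm3 and Slco1a1 day 7 replicate 2 was the later array nearest to day 0. Over the whole list that array stood at -0.10, and the other 3 later arrays at -0.60 to -0.54. The day 0 arrays stood at 0.18 (replicate 1) and -0.18 (replicate 2), so day 7 replicate 2 lay between them. Abcc4, an efflux pump of organic anions, was the higher member, at 425 and 424.5 at day 0 and 613.5 to 866.5 later (0.73 ± 0.17), and its male bias in mouse kidney is less sure than that of the others. Of 7 tested genes known to be higher in female kidney, Cyp4a14 and Kynu were higher and Slc22a7 lower at an unadjusted p under 0.05, with a median of 0.14.

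Genes of vessel walls and matrix were more often higher than lower, although most did not pass even an unadjusted p of 0.05. Of 17 tested smooth muscle and pericyte genes 6 were higher and 0 lower at an unadjusted p under 0.05 (all genes 4.79% and 3.68%). On all later arrays 7 lay above day 0 (41.2%, against 11% of all genes), and the median was 0.35. Acta2, smooth muscle actin, had 1234 and 1321 at day 0, 1917 and 2778 at day 3, and 2332 and 1497 at day 7 (0.70 ± 0.21). Myh11, smooth muscle myosin, had 117 and 87.2 at day 0, 199.5 and 259 at day 3, and 153 and 115 at day 7, where the last value overlapped day 0 (0.70 ± 0.20). Day 3 replicate 2, the array with fat and adrenal markers, was the highest for both and for the list median (0.74, against 0.11 to 0.34 on the other later arrays). Without it 5 of the 17 were higher and 0 lower, and without day 0 replicate 2 it was 4 and 0. Averaged over all probe sets of the gene, Acta2 stood at 0.27 and Myh11 at 0.43. Rgs4 stood at 0.60 with the probe set used, and at -0.16 with the probe set that is strongest in kidney, so its direction is not settled.

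Of 45 tested extracellular matrix genes 9 were higher and 2 lower at an unadjusted p under 0.05 (all genes 4.79% and 3.68%). On all later arrays 17 lay above day 0 (37.8%, against 11% of all genes), and the median was 0.24. Ccn2, connective tissue growth factor, had 1348 and 1365 at day 0, 3037 and 1986 at day 3, and 2017 and 2509.6 at day 7 (0.79 ± 0.18). The related Ccn1 had 142 and 112 at day 0, 187 and 179 at day 3, and 219 and 259 at day 7 (0.66 ± 0.15). Col12a1, a fibril-associated collagen, had 35.2 and 47.5 at day 0 and 60.5 to 81.2 later (0.65 ± 0.13), and Adamts1, a proteoglycan-cleaving metalloproteinase, was higher by 0.40 ± 0.07. The list median was 0.45 on day 3 replicate 2 and 0.07 to 0.24 on the other later arrays. Without that array the median over the later days was 0.12 in place of 0.24, with 11 of 45 members negative in place of 5, and 7 genes were higher and 1 lower at that p. Without day 0 replicate 2 it was again 7 and 1. Averaged over all probe sets, Col12a1 stood at 0.17 and Ccn1 at 0.27.

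Of 17 tested podocyte genes 4 were higher and 0 lower at an unadjusted p under 0.05 (all genes 4.79% and 3.68%). On all later arrays 7 lay above day 0 (41.2%, against 11% of all genes), and the median was 0.15. Ptpro, a receptor phosphatase of the podocyte surface, had 117 and 130.5 at day 0, 211 and 195 at day 3, and 197 and 166 at day 7 (0.57 ± 0.11). Its day 1 arrays, at 145 and 118, were close to day 0. Podxl, the podocyte sialomucin, had 471 and 465.5 at day 0 and 541 to 745 later (0.48 ± 0.11), and Synpo, synaptopodin, had 152 and 156 and then 178.5 to 231 (0.38 ± 0.13). Averaged over all probe sets, Ptpro stood at 0.32 and Synpo at 0.20. Among 21 tested endothelial genes 3 were higher and 1 lower, with a median of 0.11, and without day 3 replicate 2 it was 1 and 0. Flt1, a VEGF receptor, was higher by 0.46 at day 3 and 0.19 at day 7. Nos3, endothelial nitric oxide synthase, was weak, at 41.8 and 37.3 at day 0 and 42.8 to 72.3 later, with the highest value on day 3 replicate 2, and stood at 0.31 with that array and 0.20 without it. Of 18 tested vasoactive genes 6 were higher and 0 lower, among them Adm, adrenomedullin (0.45 ± 0.11), and Npr3, the clearance receptor of natriuretic peptides (0.41 ± 0.10, and 0.22 averaged over its probe sets).

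Of 29 tested tubular injury and repair genes 8 were higher and 1 lower at an unadjusted p under 0.05 (all genes 4.79% and 3.68%). On all later arrays 10 lay above day 0 (34.5%, against 11% of all genes), and the median was 0.26. Krt18, a keratin of simple epithelia, had 190.0 and 202 at day 0, 295 and 339.9 at day 3, and 280.3 and 249 at day 7 (0.53 ± 0.09). Krt7, another such keratin, had 461 and 479.6 at day 0 and 595 to 655 later (0.41 ± 0.11). Tm4sf1, a membrane protein of the L6 family, had 892 and 959.9 at day 0 and 1130.2 to 1413 later (0.44 ± 0.09). Cp, ceruloplasmin, had 325 and 486 at day 0 and 642 to 939.7 later, below the day 1 arrays with 1376 and 2039 (0.88 ± 0.23). Of the day 1 arrays, replicate 2 carried liver markers (Alb 12040). Without day 3 replicate 2 the list again had 8 higher and 1 lower, and without day 0 replicate 2 it had 6 and 0.

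**Figure D4:**
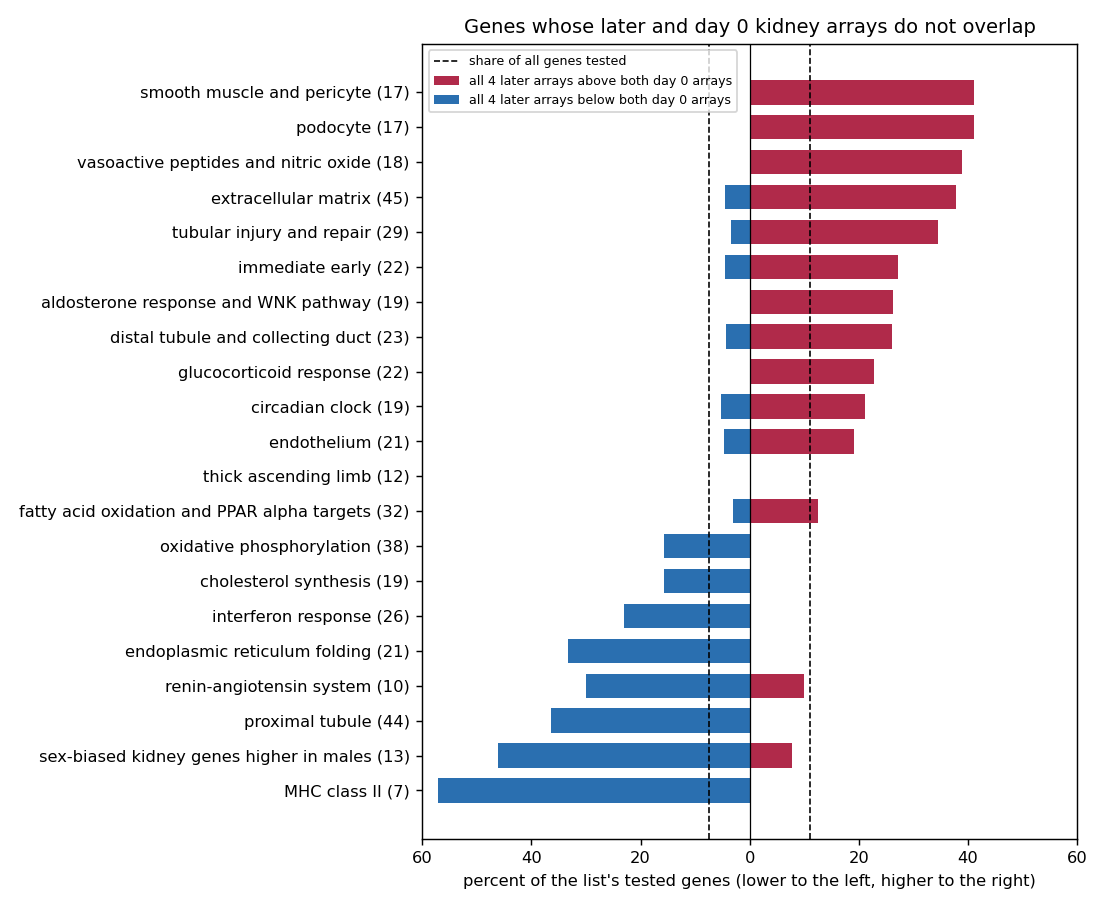
Share of each list's tested genes whose 4 later arrays all lie above (right) or below (left) both day 0 arrays, with dashed lines at the shares of all genes, 11% and 7.52%; the number of tested genes stands in brackets. Smooth muscle, podocyte and matrix genes extend to the right and proximal tubule genes (36.4%) to the left, while no thick ascending limb gene is separated either way.

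Interferon-stimulated genes, which type I and II interferons induce through STAT and IRF factors, were lower more often than higher. Of 26 tested 7 were lower and 0 higher at an unadjusted p under 0.05 (all genes 3.68% and 4.79%). On all later arrays 6 lay below day 0 (23.1%, against 7.52% of all genes), and the median was -0.42. Here the day 0 arrays themselves differed: the list median was 0.36 on replicate 1 and -0.36 on replicate 2, relative to their mean, and -0.79, -0.46, -0.29 and -0.12 on the later arrays. Cmpk2, a mitochondrial nucleotide kinase, had 381 and 277 at day 0, 163 and 197 at day 3, and 202 and 211 at day 7 (-0.71 ± 0.13). Irf9, the DNA-binding part of the ISGF3 complex, had 235 and 141 at day 0 and 113 to 134 later (-0.50 ± 0.17). Usp18, which removes ISG15 from proteins, had 220.2 and 67.1 at day 0 and 46.1 to 63.7 later (-1.02 ± 0.35). Ifit1, an RNA-binding antiviral protein, had 561 and 120.0 at day 0, 82.9 and 77.8 at day 3, and 159 and 137.5 at day 7 (-1.16 ± 0.49). Ifit3, its relative, had 545 and 195 at day 0, 163 and 98.8 at day 3, and 226 and 182 at day 7 (-0.96 ± 0.37). In both, at least 1 later array overlapped the lower day 0 array. Measured against day 0 replicate 1 alone, 16 of the 26 were lower at an unadjusted p under 0.05, and Ifit1 (-2.20 ± 0.12, adjusted p = 0.0164, limma), Usp18 (-1.77 ± 0.10) and Oas1a (-1.44 ± 0.10) fell, all 3 of the genes called in that fit (0.0212% lower, 0% higher). Without day 3 replicate 2 only 4 of the 26 were lower at that p. The fit against day 0 replicate 1 alone takes its spread from the other days. Its SE and p leave out the gap between the day 0 arrays, 561 and 120.0 for Ifit1. Replicate 1 was also the higher day 0 array for the list median. These 3 differences thus cannot show a fall from day 0, and with both day 0 arrays no gene was called. Against day 0 replicate 2 alone, Ifit1 stood at -0.12, Irf9 at -0.17, Ifit3 at -0.25, Usp18 at -0.26 and Cmpk2 at -0.49. Pooled over both later days, the 5 genes thus stood below either day 0 array, by an amount that depends on which is used. On day 7 this did not hold for Ifit1, which was above day 0 replicate 2 on both arrays (159 and 137.5 against 120.0). Ifit3 was above it on day 7 replicate 1 (226 against 195). In Cmpk2, Irf9 and Usp18 all later arrays lay below it. The list medians of both day 7 arrays lay above that of day 0 replicate 2.

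The promoters of Ifit1 and Ifit3 are shown because both genes were far higher on day 0 replicate 1 than on any later array and carry the element through which such genes are known to be induced. The sequences are those of RefSeq on GRCm38.p6, from 250 bases before to 50 after the start, and both genes lie on the plus strand, Ifit1 at chr19:34640639-34640938 and Ifit3 at chr19:34583279-34583578. Capitals mark matches to the core of the interferon-stimulated response element, GAAA and GAAA with any 2 bases between them, searched on both strands (all matches shown are on the minus strand, as TTTC and TTTC).
Ifit1: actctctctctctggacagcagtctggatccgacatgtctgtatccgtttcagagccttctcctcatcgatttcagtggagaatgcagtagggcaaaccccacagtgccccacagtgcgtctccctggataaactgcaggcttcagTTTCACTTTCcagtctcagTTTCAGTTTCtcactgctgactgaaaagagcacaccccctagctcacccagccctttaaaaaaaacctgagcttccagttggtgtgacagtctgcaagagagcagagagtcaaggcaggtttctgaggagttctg
Ifit3: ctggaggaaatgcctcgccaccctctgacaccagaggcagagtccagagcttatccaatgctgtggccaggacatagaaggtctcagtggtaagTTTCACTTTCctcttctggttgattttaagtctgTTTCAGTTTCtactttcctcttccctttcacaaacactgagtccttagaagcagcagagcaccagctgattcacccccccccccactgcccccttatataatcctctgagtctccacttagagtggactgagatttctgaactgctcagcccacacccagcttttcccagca
Each promoter holds 2 matches. Of all 32851 promoters of the RefSeq set, 1131 (3.44%) hold at least 1. Of the 21 tested interferon genes with a promoter there, 11 (52.4%) hold at least 1 match in any of their promoters. The first share counts promoters and the second counts genes, so they are not in the same unit. A match is a description of the letters in this window, and binding was not measured.

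Other immune genes varied between arrays and days. Of all genes 4.79% were higher and 3.68% lower at an unadjusted p under 0.05 by limma. The 7 tested MHC class II genes had a median of -0.47 and 0 at an unadjusted p under 0.05 by limma, and 4 of them lay below day 0 on all later arrays (57.1%, against 7.52% of all genes). The list median was -0.75 at day 3 and -0.19 at day 7. Cd74, the invariant chain, had 994 and 1188 at day 0, 387 and 471 at day 3, and 788 and 849 at day 7 (-0.86 ± 0.40), and H2-Eb1, a class II beta chain, had 1174 and 1219, then 558 and 886, then 1128 and 972. Of 27 monocyte and macrophage genes, Lgals3 and Chil3 were higher and Csf1r lower at that p. The list median was 0.05, but -0.61 and 0.06 on the day 3 arrays and -0.06 and 0.85 on the day 7 arrays, and it was -0.11 without day 3 replicate 2 and 0.21 without day 0 replicate 2. Chil3, a chitinase-like protein, ranged from 25.1 to 87.7 on the later arrays, and the lowest of them overlapped day 0. S100a8 and S100a9, the calprotectin subunits of neutrophils, were highest at day 7 replicate 1, at 241 and 244, against 37.4 to 61.2 at day 0 and 60.3 to 114 on the other later arrays (1.08 ± 0.30 and 1.08 ± 0.29). They were the 2 of 10 tested neutrophil genes at an unadjusted p under 0.05. Cxcl13, a B cell chemokine, had 38 and 56 at day 0, 117.5 and 148 at day 3, and 227 and 298 at day 7 (1.70 ± 0.40, adjusted p = 0.43, limma), the widest difference among the 26 tested chemokines and cytokines. Tested T and NK cell genes numbered 13, of which 0 had an unadjusted p under 0.05 in either direction.

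**Figure D5:**
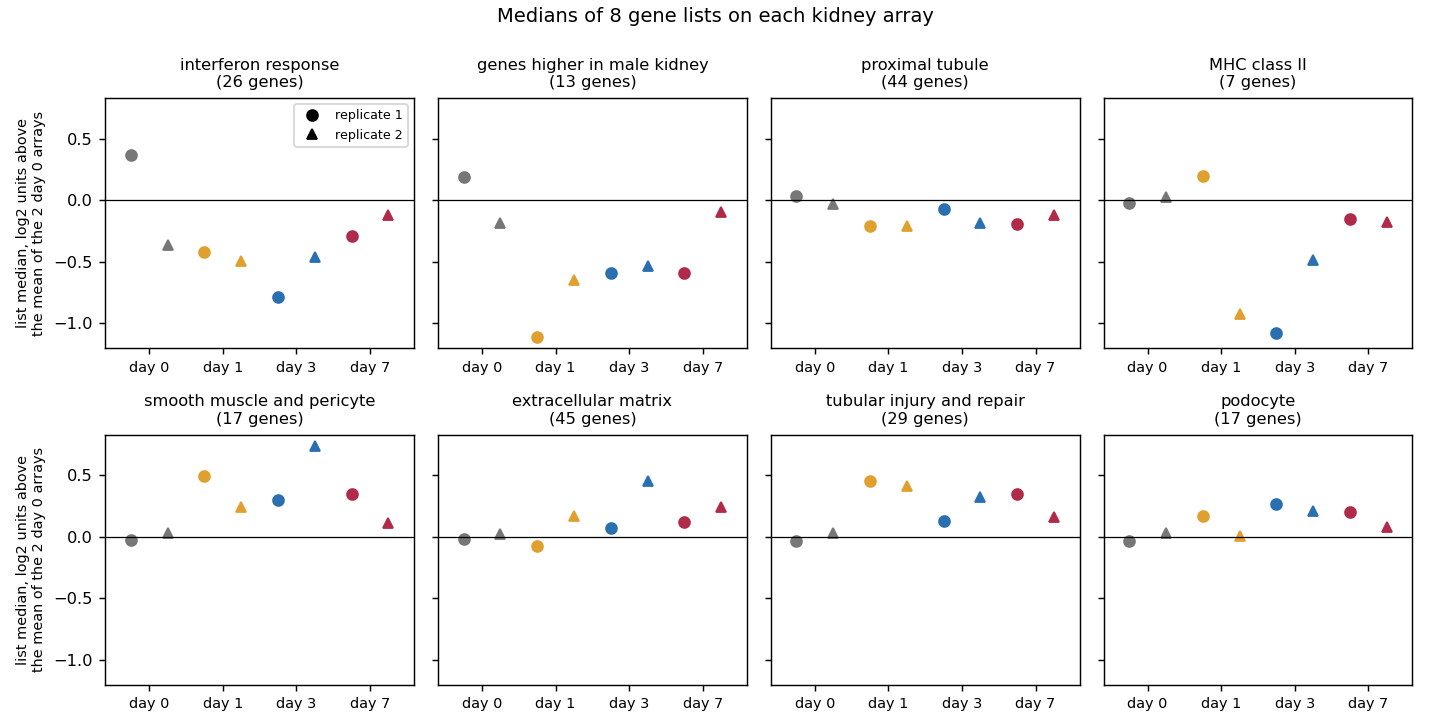
Median of 8 gene lists on each kidney array, as log2 difference from the mean of the day 0 arrays; circles are replicate 1 and triangles replicate 2. The day 0 arrays stand apart for interferon genes (0.36 and -0.36), and day 3 replicate 2 is highest for smooth muscle (0.74) and matrix genes (0.45). For genes higher in male kidney, day 7 replicate 2 is nearest to day 0 (-0.10) and lies between the day 0 arrays (0.18 and -0.18).

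Immediate early and glucocorticoid-responsive genes were higher on most later arrays. Of 22 tested immediate early genes 7 were higher and 0 lower at an unadjusted p under 0.05, with a median of 0.32. At that p 4.79% of all genes were higher and 3.68% lower. Egr1, a zinc finger transcription factor, had 67.7 and 102 at day 0, 146 and 187 at day 3, and 130.2 and 247 at day 7 (0.92 ± 0.25). Nr4a1, an orphan nuclear receptor, had 161 and 150.5 at day 0 and 197 to 317 later (0.71 ± 0.23). Of 22 tested glucocorticoid-responsive genes 6 were higher and 0 lower, with a median of 0.44. Cdkn1a, the cell cycle inhibitor p21, had 215 and 148.5 at day 0 and 264 to 311 later (0.63 ± 0.18, and 0.39 without day 0 replicate 2), and Mt1, metallothionein 1, stood at 0.51 at day 3 and 0.10 at day 7. Without day 3 replicate 2 the glucocorticoid list had 12 higher, and without day 0 replicate 2 it had 1. Among 19 tested clock genes 3 were higher and 1 lower, including Cry2 (0.37 ± 0.10), and without day 3 replicate 2 it was 7 and 2. The labels give no hour of death, and its part in these lists was not tested.

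Of 16 tested genes of complement and acute phase, 1, Cp, was higher at an unadjusted p under 0.05 (4.79% of all genes). A positive difference was found in 14, and 5 lay above day 0 on all later arrays (31.25%, against 11% of all genes). The list median was 0.37, and 0.10 without day 3 replicate 2.

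Metabolic and housekeeping lists had medians between -0.13 and 0.05. Of all genes 4.79% were higher and 3.68% lower at an unadjusted p under 0.05, and 7.52% lay below day 0 on all later arrays. The counts for oxidative phosphorylation and cell division below were near these shares. Lists of heat shock, NRF2, gluconeogenesis, mineral handling and B cell genes, of 9 to 21 tested members, had at most 1 member at an unadjusted p under 0.05. Of 32 tested genes of fatty acid oxidation and PPAR alpha targets 3 were higher and 1 lower at an unadjusted p under 0.05, with a median of 0.05, far below the value of Cyp4a14. Without day 3 replicate 2 it was 6 and 2, with a median of -0.01. Acadm, the medium-chain acyl-CoA dehydrogenase, was the lower one (-0.29 ± 0.09). Of 19 tested cholesterol synthesis enzymes 3 were lower and 0 higher, with a median of -0.02. Cyp51, lanosterol demethylase, had 1074 and 1024 at day 0, 669 and 639 at day 3, and 776 and 869 at day 7 (-0.51 ± 0.14), Mvd, mevalonate diphosphate decarboxylase, was lower by -0.43 ± 0.09, and Idi1, isopentenyl diphosphate isomerase, by -0.64 ± 0.17. Of 21 tested folding genes of the endoplasmic reticulum 3 were lower and 0 higher, 7 lay below day 0 on all later arrays (33.3%), and the median was -0.13, and without day 3 replicate 2 there were 5 lower. Hyou1, a chaperone, had 904 and 1021 at day 0 and 713 to 854 later, Pdia3, a disulfide isomerase, was lower by -0.26 ± 0.08, and Hspa5, the chaperone BiP, had 3609 and 3408 and then 2775 to 3035. Hspa5 was higher than day 0 on the day 1 arrays, at 5641 and 4464. Of 38 tested genes of oxidative phosphorylation 1, Uqcrc1, a core subunit of complex III, was lower (-0.26 ± 0.08, and -0.14 without day 0 replicate 2) and 0 higher, with a median of -0.01. Among 27 tested cell division genes, Ccnd1, cyclin D1, was lower (-0.33 ± 0.07) and Mcm7, a subunit of the replicative helicase, was 1 of 2 higher (0.29 ± 0.08).

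Heart was sampled on the same days, so the later difference in kidney could be tested against that in heart in the joint fit. Of 14656 genes, 3 stood higher and 7 lower in kidney minus heart (0.0205% and 0.0478%, adjusted p under 0.05, limma). For 4 of the 10 the kidney carried the difference: Cyp4a14 (1.49), Slc51a (-0.91), Lipo3 (-0.95) and Akr1d1 (-1.004), with heart differences between -0.03 and 0.22. All of these but Lipo3 are below the filter in heart, where a change could not be measured. In the other 6, Ano10, Tmprss13, Ankrd1, Mybpc2, Acta1 and Myh7, the kidney difference lay between -0.08 and 0.19 and the heart carried the difference. All of them but Ano10 were weak in kidney, with mean intensities from 23.4 (Mybpc2) to 34.7 (Acta1) over the 8 arrays. A change of these genes in kidney could thus hardly be measured.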

How the data were processed

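Per the labels, RNA of mouse organs was hybridised to Affymetrix whole-genome arrays, 1 sample per array. The authors deposited 1 table of intensity values on a linear scale for 45101 probe sets, and the submitters' processing notes name Affymetrix Expression Console as the tool. Which of its algorithms and settings was used is not given in the sources. Probe sets with 1 gene symbol in the platform annotation (34945) gave 18193 genes, each by its probe set of highest mean over the 30 arrays. Values were taken as log2(deposited value + 16), and genes above the 40th percentile on at least 2 of the 8 kidney arrays were kept. One mean per day was fitted to the 8 kidney arrays in limma 3.58.1 (R 4.3.3, 4 residual degrees of freedom). The mean of days 3 and 7 was compared with day 0, and p-values were adjusted by Benjamini-Hochberg over all 14145 genes. The fit was tested on simulated data. Replicate numbers were checked for pairing by the difference of replicate 2 from replicate 1 within each day. The correlation of this difference across genes, between days, ran from -0.09 to 0.25 and was over 0.1 in 4 of 6 pairs of days. No pairing was assumed, and a fit with the replicate number as a block is given below. The 10 genes per direction with the smallest p and no overlap between groups were named, with those of smallest p in each of 42 lists, and other list genes named were chosen after their values were seen. The members and lists were chosen with earlier results of these data known. Other filters, added values, probe set rules, variance models, covariates and left-out arrays were tried. Promoters are from RefSeq (GRCm38.p6).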

Additional observations from a re-analysis of the deposited data

Results flagged for a closer look

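Among the 4 later arrays, 43 list medians and 92 genes were searched for 1 array far from the other 3 (by Dixon's critical value for the gap over the range, which chance passes in about 5% of searches), and 7 lists and 3 genes had one. Day 3 replicate 2 stood apart for the medians of white fat (2.58 above the day 0 mean on the log2 scale), brown fat (2.23), adrenal cortex (2.42), adrenal medulla (0.63) and urothelium (0.54) markers. Day 3 replicate 1 stood apart for genes of the aldosterone response and WNK pathway, at 0.37 against 0.08 to 0.11 on the other later arrays. Day 7 replicate 2 stood apart for genes higher in male kidney, at -0.10 against -0.60 to -0.54. Of single genes, Slc51a was lowest on day 3 replicate 1 (-1.12), Foxi1 highest on the same array (0.61), and Mvd nearest to day 0 on day 7 replicate 2 (-0.34).

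The later difference from day 0 was not the same in kidney and heart for 10 genes, by a test of the difference itself in the joint limma fit (adjusted p from 0.000724 to 0.0181). Kidney minus heart was 1.71 for Ano10, 1.49 for Cyp4a14 and 1.27 for Tmprss13. It was -0.91 for Slc51a, -0.95 for Lipo3, -1.004 for Akr1d1, -1.11 for Ankrd1, -1.18 for Mybpc2, -1.65 for Acta1 and -2.90 for Myh7. Cyp4a14, Slc51a and Akr1d1 were below the filter in heart. Tmprss13, Ankrd1, Mybpc2, Acta1 and Myh7 were weak in kidney.

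The day 1 arrays also carried markers of other tissues. Their level enters no difference of later days from day 0, but they help to estimate its spread. The liver list stood at 5.84 above the day 0 mean on day 1 replicate 2. White fat stood at 1.35 on replicate 1 and 1.53 on replicate 2, and brown fat at 1.26 and 1.49.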

How the results depend on the processing

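The 20 genes named first kept their direction under all 24 alternatives (480 values, 8 of them now past the threshold), as did the 12 genes added by the joint fit (288 values, 13 past the threshold). For both sets the direction was fixed where an array was left out, as their later and day 0 arrays do not overlap. Alternatives that change only the spread leave the difference itself unchanged. Of 60 named list genes 1 value of 1440 reversed: Rgs4 was -0.16 with the probe set of highest kidney mean. Size was less stable: 14 of the 20, 4 of the 12 and 30 of the 60 stayed within 1.5 times of their value in all settings. The mean of all probe sets moved Slc7a13 to -0.29, Calb1 to -0.20, Hyou1 to -0.17, Tm4sf1 to 0.27, Rgs5 to 0.41, Flt1 to 0.19, Mcm7 to 0.15 and Mt1 to 0.15, besides the genes given above. The count of 0 called genes for later days against day 0 became 1 with the white fat median as covariate, 17 in the joint fit, 3 without both arrays with adrenal markers, and 0 to 32 when 1 array was left out. It was 32 without day 3 replicate 1, where the array with fat markers stands alone for its day, and 3 without day 0 replicate 2. For day 3 against day 0 it became 24 in the joint fit and 0 to 69 with 1 array left out (69 without day 3 replicate 1, 4 without day 0 replicate 2). For day 7 against day 0 it became 1 with the white fat covariate and 7 in the joint fit. For day 7 against day 3 it was 0 to 40 with 1 array left out (40 without day 3 replicate 1, 1 without day 7 replicate 1). Genes called and at least 0.5 times as large on both days numbered 0, against 16 in the joint fit, 3 without both arrays with adrenal markers and 0 to 4 with 1 array left out (4 without day 3 replicate 1, 3 without day 0 replicate 2). The 10 genes that differed between kidney and heart became 17 with the mean of all probe sets, 21 with 64 added before the logarithm, and 7 to 48 with 1 array left out (48 without day 3 replicate 1). A day left with 1 array is given the spread of the other days. With the replicate number as a block, 0 genes were called and 1213 had an unadjusted p under 0.05 (limma, smallest adjusted p 0.154). The cause of these shifts was not tested. No detection calls were used, so differences near background are the least certain.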
